A study of Bos taurus with 8 samples.

Results

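The genes that encode the enzymes and cofactors of DNA methylation were examined in dermal fibroblasts of cattle, through the methylation of their own loci. The list held 10 genes: the writers DNMT1, DNMT3A, DNMT3B and DNMT3L, the maintenance partner UHRF1, the erasers TET1, TET2, TET3 and TDG, and the reader MBD2. Every 3Kb window of the genome (UMD v3.1) that carried one of these names was taken, together with the 2 windows on each side. This gave 99 windows for 8 of the 10 genes, out of 902984 windows in all, and 32 flanking windows. DNMT3B and TET1 were not analysed here, because no window carried their names.

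In MIRA-Seq, fragments of genomic DNA that carry methylated CpG are captured by a complex of MBD2b and MBD3L1 and sequenced, and the read count of a window rises with the methylated CpG in it. The cultures came from shoulder skin of 4 Holstein (dairy) and 4 Angus (beef) heifers of the same age, were left un-treated and were at passage 5. There was 1 library per animal, named here by breed and animal number, and values listed by culture follow the animal numbers from 1 to 4. Breed was the only factor that differed between the groups by label, and since dairy and beef calves are typically reared in different ways, breed and rearing cannot be told apart. The data hold DNA methylation only, so neither the fibroblast identity of the cells nor the expression of these genes could be checked in them.

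DNA methylation in mammals is placed on cytosines of CpG dinucleotides. DNMT3A sets new methylation, and DNMT3L is a catalytically inactive partner that stimulates it, best known from germ cells. DNMT1 copies the pattern to the new strand after replication, at hemimethylated sites that UHRF1 recognises. TET enzymes oxidise methylcytosine and TDG, a DNA glycosylase, excises the further oxidised bases so that repair can restore cytosine. MBD2 reads methylated CpG and recruits a repressive chromatin complex; a form of it is also a component of the pull-down reagent. In most genes of somatic cells a CpG-rich promoter carries little methylation, whereas the transcribed body is often methylated.

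The libraries held between 18691111 and 35525554 reads over all windows, and 3 reads, taken as the smallest count that can be told from 0, corresponded to 0.0844 to 0.161 CPM (reads per 1e6 reads over all windows). Such floors cover counting error only. Holstein 1 and Angus 3 stood apart, with 69.0% and 72.4% of their reads in the 1% of windows with most reads against 46.8% to 57.4% in the other libraries. Their CPM over the 99 windows summed to 104 and 89.6, below the 124 to 163 of the other libraries, whereas with TMM-scaled library sizes all 8 sums lay between 127 and 134. Levels in CPM are therefore low for most of these genes in both libraries, and breed differences were tested with TMM scaling. The highest coverage of any base in these 99 windows was 32 reads.

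The level of each gene was taken as the mean CPM per 3Kb window, which compares genes per length but not by kind of window. Windows with a coding exon were 13 of 15 in DNMT1, 9 of 12 in UHRF1, 6 of 6 in DNMT3L and 6 of 12 in TET3. They were 4 of 15 in DNMT3A, 4 of 17 in MBD2, 9 of 15 in TET2 and 5 of 7 in TDG. The levels were not adjusted for this. UHRF1, DNMT3L, DNMT1 and TET3 stood high, at or above the 86.2 percentile of the 25264 named genes on chromosomes, whose median was 0.545 CPM per window. DNMT3A and MBD2 were intermediate, and TET2 and TDG lay below that median. The range over the 8 genes ran from 0.363 ± 0.112 CPM per window in TDG to 2.44 ± 0.423 in UHRF1 (SD, n = 8).

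**Figure D1:**
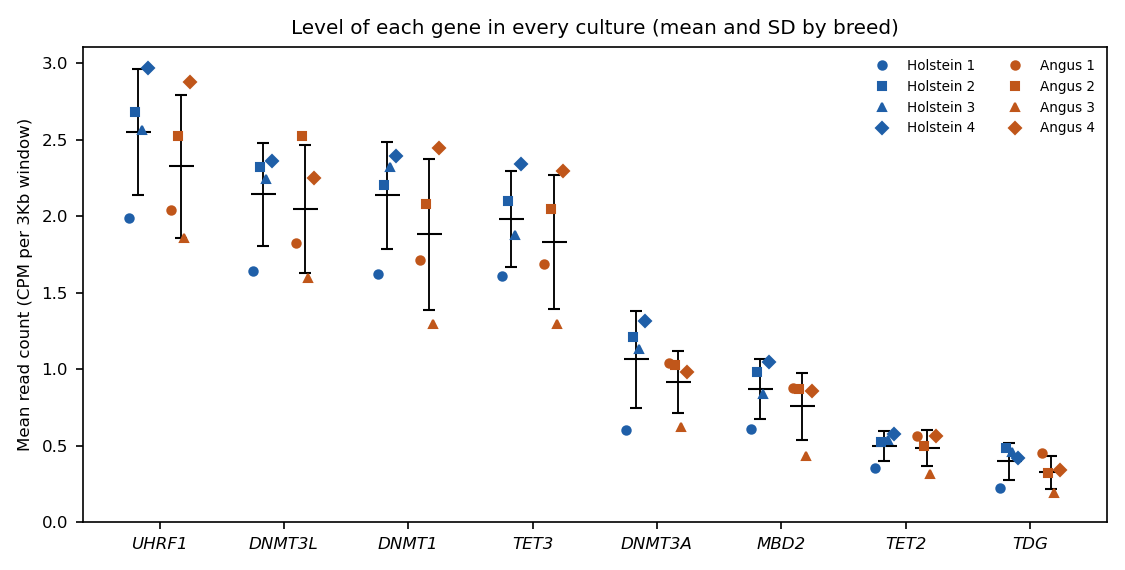
Mean read count per 3Kb window (CPM, y axis) of the 8 genes (x axis) in each culture, with circles, squares, triangles and diamonds for animals 1 to 4 of a breed, and bars for the mean ± SD of each breed (n = 4). UHRF1, DNMT3L, DNMT1 and TET3 lay between 1.29 and 2.97 in every culture and the other 4 genes between 0.192 and 1.32, with Holstein 1 and Angus 3 low in most genes.

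UHRF1 held 1.99, 2.68, 2.56 and 2.97 CPM per window in the Holstein and 2.04, 2.53, 1.86 and 2.88 in the Angus cultures. DNMT3L held 1.64, 2.32, 2.24 and 2.36 in the Holstein cultures and 1.83, 2.53, 1.60 and 2.25 in the Angus cultures. In both genes the breeds overlapped and the lowest culture of each breed was Holstein 1 and Angus 3. DNMT1 held 1.62, 2.20, 2.32 and 2.40 against 1.71, 2.08, 1.29 and 2.45. TET3 held 1.61, 2.10, 1.88 and 2.34 against 1.69, 2.05, 1.30 and 2.30. DNMT1, the maintenance methyltransferase, exceeded TET3, a dioxygenase, in 7 of 8 cultures, but the difference (0.103 ± 0.148, SD over 8 cultures) was smaller than its spread. DNMT3L and DNMT1 also differed by less than the spread (0.0860 ± 0.209, DNMT3L higher in 5 of 8 cultures), whereas UHRF1 exceeded DNMT3L by 0.342 ± 0.206 in 7 of 8 cultures.

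A step of 0.915 ± 0.223 CPM per window separated TET3 from DNMT3A, in all 8 cultures. DNMT3A, the de novo methyltransferase, held 0.604, 1.21, 1.13 and 1.32 in the Holstein and 1.04, 1.03, 0.620 and 0.984 in the Angus cultures. MBD2 held 0.610, 0.983, 0.839 and 1.05 against 0.879, 0.873, 0.433 and 0.856. DNMT3A exceeded MBD2 by 0.177 ± 0.0936 in 7 of 8 cultures. TET2 held 0.354, 0.528, 0.537 and 0.576 against 0.563, 0.496, 0.313 and 0.567, and lay below MBD2 in all 8 cultures, by 0.323 ± 0.114. TDG was the lowest at 0.224, 0.488, 0.459 and 0.422 against 0.454, 0.323, 0.192 and 0.344, again in all 8 cultures (0.129 ± 0.0567 below TET2). The ranges of each neighbouring pair overlapped, so that the order among neighbours shows within cultures rather than between them.

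Within the genes the read counts were far from even. The highest window of a gene exceeded its lowest by 2.09-fold in DNMT3L and by 20.7-fold in DNMT1; in TET2 the lowest window was under the floor of 3 reads in CPM and no fold is given. The breed test required 1 CPM or more in 4 or more samples, and 53 of the 99 windows met this filter, which is 53.5% against 12.8% of all windows and 18.9% of windows with a gene name. These were 9 of 15 windows of DNMT1, 10 of 12 of UHRF1, 9 of 15 of DNMT3A, 6 of 6 of DNMT3L, 4 of 15 of TET2, 9 of 12 of TET3, 6 of 17 of MBD2 and 0 of 7 of TDG. In 23 of the 99 windows at least 1 library had 3 reads or fewer.

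**Figure D2:**
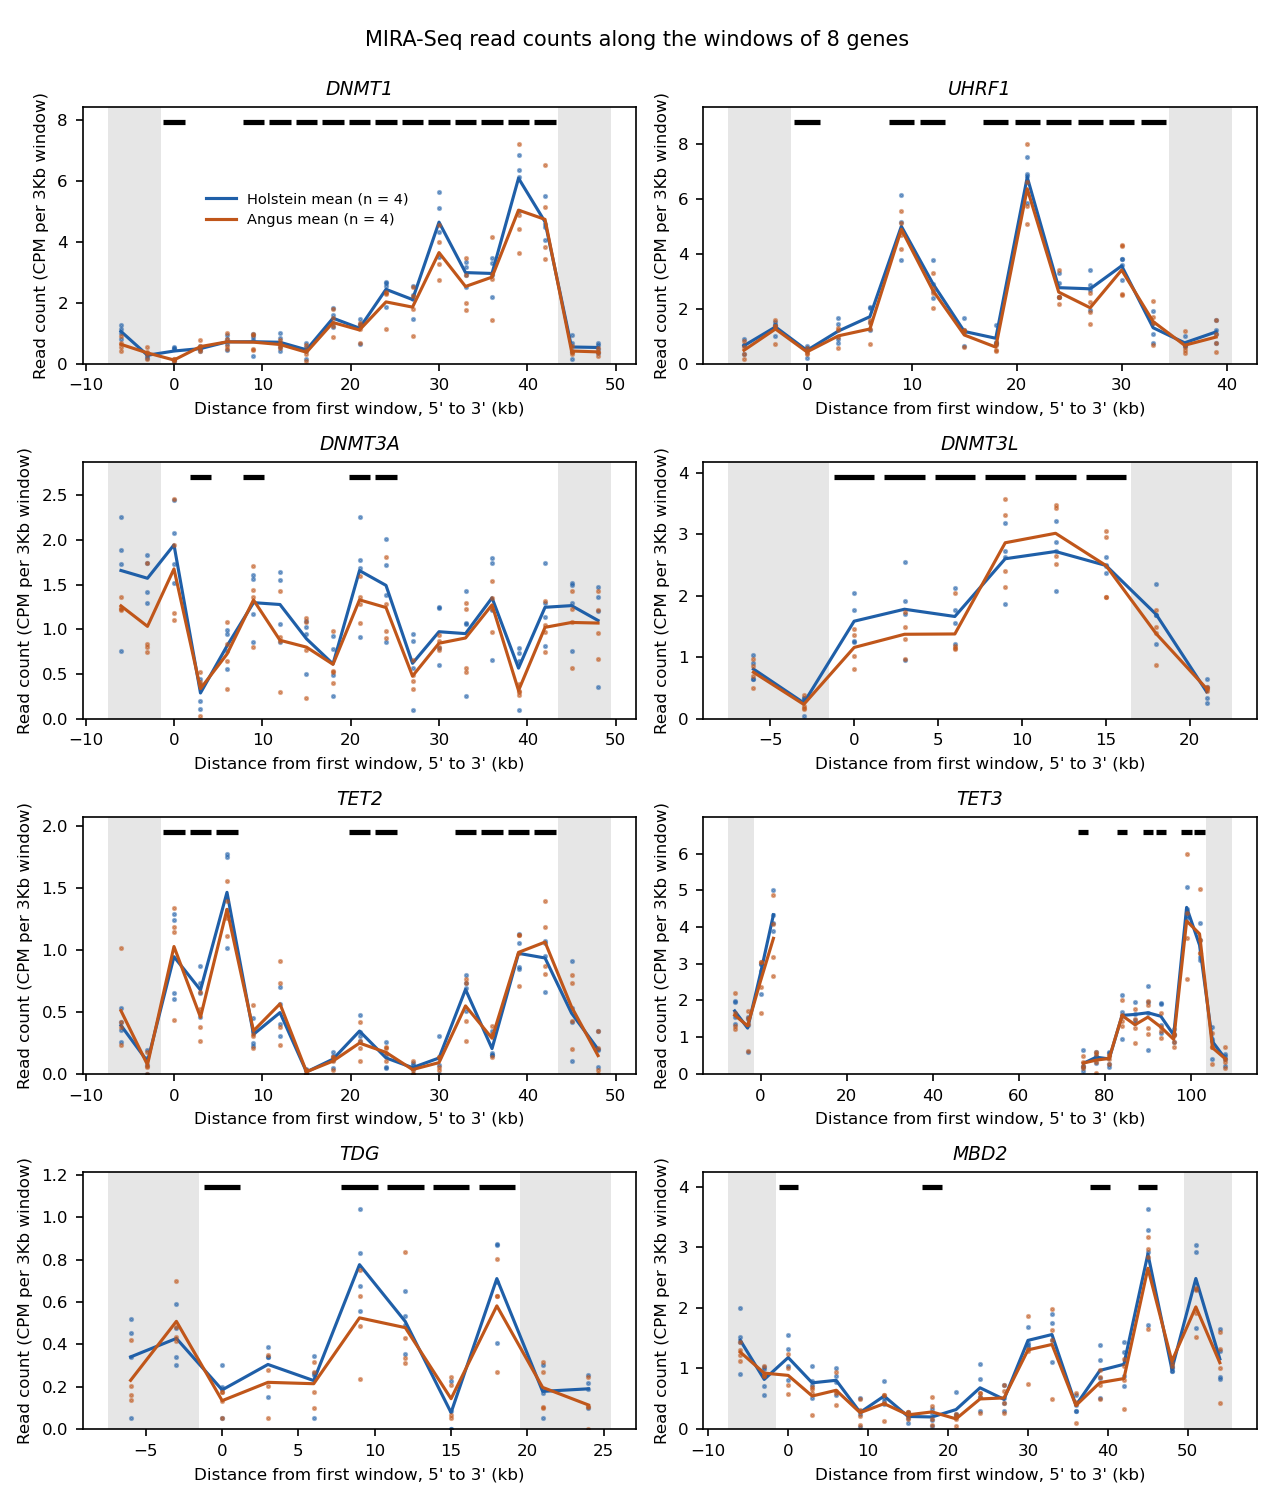
Read count per 3Kb window (CPM, y axis) along the 8 genes in their direction of transcription (x axis, distance from the first window in kb), with dots for the 8 cultures, lines for the breed means (n = 4), black bars for windows with a coding exon and grey areas for the 2 flanking windows on each side. The DNMT1 means climb from 0.269 in the first window to 5.56 in window 14, the 2 TET3 windows that stand apart are drawn at the left of their panel, and the breed lines run close together in all 8 genes.

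DNMT1 lies on the minus strand of chromosome 7 and showed a gradient along its length. Its first window, with coding exon 1 (7:15955246-15958245), held 0.269 ± 0.210 CPM, which is at the 33.6 percentile of the first windows of 20783 genes (median 0.403 CPM). Windows 2 to 6 stayed between 0.416 and 0.717 CPM, windows 7 to 10 lay between 1.14 and 2.23, and windows 11 to 15 lay between 2.76 and 5.56. The highest was window 14, which touched coding exon 35 (7:15916246-15919245). It held 5.01, 6.84, 6.36 and 6.14 CPM in the Holstein and 3.63, 4.87, 4.43 and 7.22 CPM in the Angus cultures, so that Angus 4 was the highest and Angus 1 the lowest of all cultures. Past the last window the count dropped to 0.483 ± 0.249 CPM. The gene's windows together exceeded their flanks by 1.48 CPM on average, in all 8 cultures (exact sign-flip permutation test, two-sided, adjusted p = 0.0129).

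UHRF1, the partner that brings DNMT1 to hemimethylated DNA, is also on the minus strand of chromosome 7. Its first window was the lowest of the gene, with separate peaks behind it. This window with coding exon 1 (7:20468246-20471245) held 0.202, 0.563, 0.643 and 0.535 CPM in the Holstein and 0.454, 0.556, 0.336 and 0.375 CPM in the Angus cultures. The mean of 0.458 CPM lay at the 55.0 percentile of first windows, so the start was low only beside the rest of the gene. Upstream this first window adjoins a window with coding exon 1 of ARRDC5, a gene on the other strand. Window 4, at coding exon 3, reached 4.95 ± 0.749 CPM. Window 8, at coding exon 10 (7:20447246-20450245), was the highest of all 99 windows, with 5.87, 6.92, 6.85 and 7.54 CPM in the Holstein and 5.10, 6.64, 5.74 and 8.03 CPM in the Angus cultures. Between the peaks window 7 held 0.766 ± 0.289 CPM. The gene exceeded its flanks by 1.52 CPM in all 8 cultures (exact sign-flip test, adjusted p = 0.0129).

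DNMT3A, on the minus strand of chromosome 11, had its highest count in the first window (11:74017085-74020084), which holds no coding exon. That window held 1.52, 1.73, 2.08 and 2.45 CPM in the Holstein and 1.19, 1.95, 1.11 and 2.46 CPM in the Angus cultures, a mean of 1.81 ± 0.521 at the 90.4 percentile of first windows. The next window, to which coding exon 1 is assigned, was the lowest of the gene at 0.313 ± 0.175 CPM. The remaining windows lay between 0.442 and 1.49 CPM without a gradient. The gene was lower than its flanks by 0.263 CPM on average, in all 8 cultures (exact sign-flip test, adjusted p = 0.0129), and its upstream flanks carried another gene name (LOC100848258). Only 4 of the 15 windows carry a coding exon, numbered 1 to 4, so that the gene model used for the windows covers only part of the coding sequence. The downstream flanks may therefore lie inside the gene.

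DNMT3L, on the minus strand of chromosome 1, carried a coding exon in all 6 windows. Its first window, at coding exon 3 (1:145716901-145719900), held 1.26, 1.26, 1.78 and 2.05 CPM in the Holstein and 1.47, 1.36, 0.806 and 1.02 CPM in the Angus cultures. The mean of 1.37 ± 0.399 CPM stands at the 86.3 percentile of first windows. Coding exons 1 and 2 have no window of that number, since a window carries a single exon number. Windows 4 to 6 held between 2.49 and 2.87 CPM, and the highest was window 5 at coding exon 11 (1:145704901-145707900). It held 2.07, 2.73, 3.22 and 2.87 CPM in the Holstein and 2.65, 3.48, 2.52 and 3.42 CPM in the Angus cultures, which overlapped. The gene exceeded its flanks by 1.34 CPM in all 8 cultures (exact sign-flip test, adjusted p = 0.0129).

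TET2, on the minus strand of chromosome 6, was low through most of its length with counts at both ends. The first window with coding exon 1 (6:21216282-21219281) held 0.607, 0.649, 1.29 and 1.24 CPM in the Holstein and 1.19, 1.15, 0.437 and 1.34 CPM in the Angus cultures. Its mean of 0.986 ± 0.359 CPM lay at the 79.6 percentile of first windows. The highest was window 3 at coding exon 4 (6:21210282-21213281) with 1.40 ± 0.279 CPM. Windows 6 to 11 lay between 0.0170 and 0.297 CPM, and the 2 last windows, both at coding exon 9, held 0.976 ± 0.158 and 0.999 ± 0.229 CPM. The gene exceeded its flanks by 0.185 CPM in 7 of 8 cultures (exact sign-flip test, adjusted p = 0.0231), but with medians over windows the difference was 0.058 and did not pass (adjusted p = 0.068).

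TET3, on the minus strand of chromosome 11, carried its name on 10 adjoining windows (11:10543985-10573984) and on 2 windows that stand apart upstream (11:10643285-10649284), with unnamed windows between. The 2 windows that stand apart held 2.64 ± 0.520 and 4.01 ± 0.792 CPM and no coding exon. The first of them held 2.17, 2.81, 2.99 and 2.98 CPM in the Holstein and 2.37, 3.06, 1.65 and 3.05 CPM in the Angus cultures, and its mean lay at the 94.8 percentile of first windows. The window with coding exon 1, in contrast, held 0.292 ± 0.189 CPM and the next 2 windows 0.416 CPM each. The highest was window 11 at coding exon 7 (11:10546985-10549984), with 4.30, 4.50, 4.24 and 5.09 CPM in the Holstein and 3.70, 4.38, 2.59 and 5.99 CPM in the Angus cultures. The Angus cultures enclosed the Holstein range there. The gene exceeded its flanks by 0.871 CPM in all 8 cultures (exact sign-flip test, adjusted p = 0.0129).

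TDG, on the plus strand of chromosome 5, was the least covered. Its first window with coding exon 1 (5:67971606-67974605) held 1, 7, 5 and 7 reads in the Holstein and 5, 5, 4 and 1 reads in the Angus cultures, or 0.159 ± 0.0820 CPM, at the 15.5 percentile of first windows. The highest was window 4 at coding exon 2 (5:67980606-67983605). It held 0.556, 1.04, 0.832 and 0.676 CPM in the Holstein and 0.628, 0.487, 0.235 and 0.749 CPM in the Angus cultures. TDG exceeded its flanks by 0.0902 CPM, which is within the range of the floors but was seen in all 8 cultures (exact sign-flip test, adjusted p = 0.0129).

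MBD2, on the minus strand of chromosome 24, had moderate counts at its start, low counts through the following windows and its peak near the end. The first window with coding exon 1 (24:54090931-54093930) held 0.809, 1.04, 1.32 and 1.55 CPM in the Holstein and 0.733, 1.01, 0.571 and 1.23 CPM in the Angus cultures, a mean of 1.03 ± 0.326 at the 80.6 percentile. Windows 4 to 8 lay between 0.221 and 0.482 CPM. Window 16 at coding exon 5 (24:54045931-54048930) reached 2.77 ± 0.717 CPM, with 1.72 CPM in Holstein 1 and 1.65 CPM in Angus 3 against 2.84 to 3.63 CPM in the other cultures. The gene was lower than its flanks by 0.588 CPM in all 8 cultures (exact sign-flip test, adjusted p = 0.0129). Over all 25202 genes compared with their flanks, 45.5% were higher and 27.3% lower by the same test, beside 6 higher and 2 lower among these 8 genes. Of the 2 lower, DNMT3A has downstream flanks that may lie inside the gene. With medians over windows the differences were 0.942 CPM in DNMT1, 0.490 in TET3 and 0.0459 in TDG, and these 3 still passed.

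The first window by strand, which stands for the start of a gene, was then compared with the mean of the other windows of the same gene within each culture. It was lower in DNMT1, UHRF1, DNMT3L and TDG and higher in DNMT3A, TET2 and TET3, in all 8 cultures each. For each of these 7 genes the exact two-sided sign-flip permutation test gave p = 0.00781, the smallest that 8 cultures allow, and an adjusted p of 0.0134 over all 20779 genes compared. In that background 49.4% of genes were lower and 21.8% higher in the first window, so that neither direction is unusual.

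With the first window taken by strand, the gap in CPM was widest in the maintenance pair, and differences in CPM rise with the level of a gene. UHRF1 held 0.458 CPM in the first window against 2.62 in the others (difference -2.16 ± 0.392, SD, n = 8), and DNMT1 held 0.269 against 2.13 (-1.87 ± 0.366). In DNMT3L the values were 1.37 and 2.24 CPM (-0.865 ± 0.469) and in TDG 0.159 and 0.397 CPM (-0.238 ± 0.0922). On the other side, DNMT3A held 1.81 against 0.934 CPM (0.877 ± 0.447), TET3 2.64 against 1.84 (0.795 ± 0.264) and TET2 0.986 against 0.457 (0.530 ± 0.299). MBD2 did not pass the test, with 1.03 against 0.802 CPM (0.231 ± 0.236), higher in 7 of 8 cultures (exact sign-flip test, adjusted p = 0.0538). It passed the same test on the log2(CPM + 0.1) scale (adjusted p = 0.0252), with medians over windows (0.406, adjusted p = 0.0152), with TMM library sizes (adjusted p = 0.0439) and without Angus 1 (0.286, adjusted p = 0.0260). With any other library left out it did not pass the sign-flip test (adjusted p = 0.0838 to 0.104), nor with the window of coding exon 1 as the first (adjusted p = 0.0532).

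The direction in DNMT3A and TET3 depended on which window counts as the first. With the window of coding exon 1 in that place, DNMT3A was lower by 0.728 CPM and TET3 by 1.76 CPM, in all 8 cultures each (exact sign-flip test, adjusted p = 0.0131). The TET3 gap was then close to that of DNMT1 (-1.87 CPM). TET3 was also lower, by 1.48 CPM, when the 2 windows that stand apart were left out. With this definition, which DNMT3L could not enter, 5 genes were lower in the first window (DNMT1, UHRF1, DNMT3A, TET3 and TDG), TET2 was higher and MBD2 did not pass. This definition was chosen after the values were seen. The share of all genes that are lower with it is not given here, so this count says nothing particular to the listed genes.

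**Figure D3:**
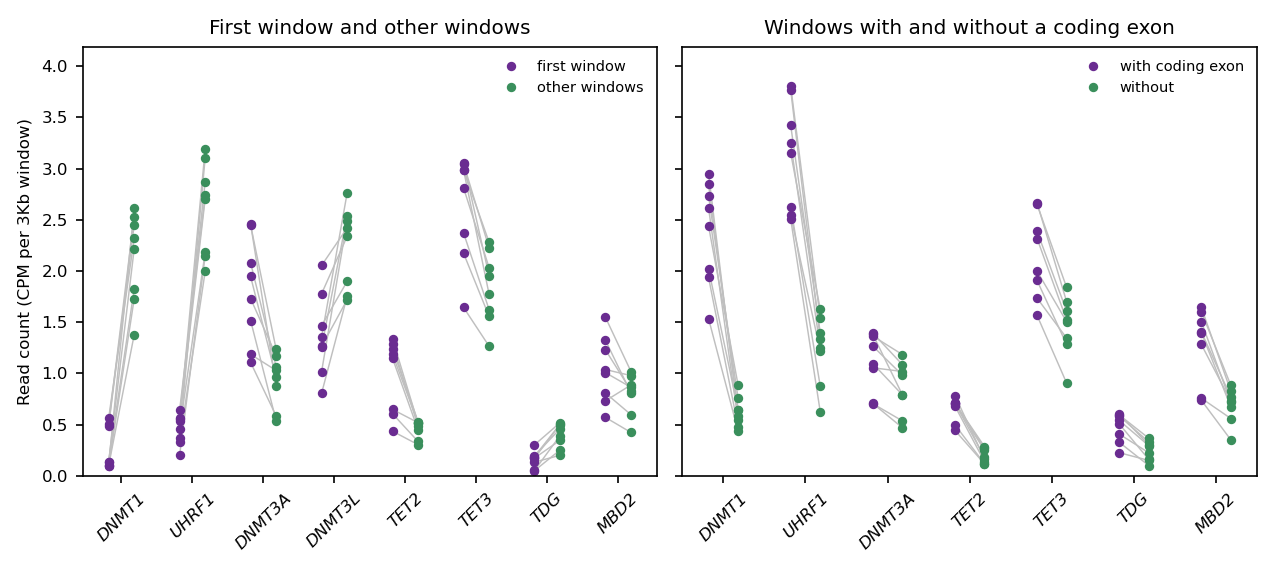
Read count (CPM per 3Kb window, y axis) in each of the 8 cultures for the first window and the mean of the other windows of a gene (left), and for the mean of windows with and without a coding exon, first windows left out (right), with grey lines joining the 2 values of a culture. The lines point 1 way in all cultures for every gene but MBD2 in the left panel, where 7 of 8 do.

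Windows with a coding exon held more reads than windows without one in all 7 genes that have both kinds, with first windows left out. The difference was positive in all 8 cultures for each gene (exact sign-flip test, adjusted p = 0.0117 for each over all 12088 genes compared). DNMT1 held 2.39 CPM in windows with a coding exon and 0.623 in the others, and UHRF1 held 3.14 and 1.23 CPM. The erasers followed with 2.15 and 1.46 CPM in TET3, 0.656 and 0.191 CPM in TET2 and 0.475 and 0.242 CPM in TDG. TET3 without the 2 windows that stand apart had a difference of 1.70 CPM in place of 0.689. MBD2 held 1.29 and 0.688 CPM, and its difference of 0.605 was 0.252 with medians over windows. Of its 3 windows with a coding exon behind the first, window 16 held 2.77 CPM and the others 0.867 and 0.242. The smallest ratio was in DNMT3A, with 1.12 and 0.858 CPM (difference 0.264 ± 0.160, SD, n = 8, and 0.467 with medians). In the background 56.9% of genes were higher and 22.0% lower in windows with a coding exon, and the median difference was 0.143 CPM against 0.605 CPM over the 7 genes. Differences in CPM rise with the level of a gene, and DNMT1, UHRF1 and TET3 stood high, so these medians are not compared at like levels.

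The comparison of interest to the study was that between the breeds. A differentially methylated window was called at FDR < 0.1 and a fold change of at least 2 by the likelihood-ratio test of edgeR. None of the 53 windows that passed the CPM filter was called, against 0.231% of the 115360 windows tested. None of the 99 windows was called when all windows with reads were fitted (0.102% of 887821 windows). None of the 32 flanking windows was called, with the 12 that passed the filter taken from the filtered fit and the others from the fit of all windows with reads. At an unadjusted p under 0.05 there was 1 of the 53 windows, against 4.94% of all windows tested, by both the likelihood-ratio and the quasi-likelihood test of edgeR, and 0 by DESeq2. In the fit of all windows with reads there were 2 of the 99 windows, both below the filter, against 4.55% of all windows with reads. Of the 32 flanking windows, 1 had p under 0.05 by the likelihood-ratio test. Over the 53 windows the log2 fold change of Holstein over Angus ran from -0.36 to 0.41, and its median size of 0.13 equalled that of all windows tested.

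The window with the smallest p was the first window of DNMT1. It held 2, 13, 13 and 18 reads in the Holstein and 4, 4, 3 and 2 reads in the Angus cultures. In CPM these were 0.101, 0.563, 0.492 and 0.507 against 0.140, 0.139, 0.101 and 0.107, so that 3 Holstein cultures lay above all Angus cultures and Holstein 1 lay among them. The log2 fold change in the fit of all windows with reads was 1.60 (SE 0.45, 95% interval 0.71 to 2.49). It did not pass the adjustment over all windows, with FDR = 0.267 by the edgeR likelihood-ratio test and 0.491 by the quasi-likelihood test. Without Holstein 1, the Holstein culture that lay among the Angus values, the window was called. Its log2 fold change was then 1.75, with FDR = 0.0989 by the edgeR likelihood-ratio test. Without both Holstein 1 and Angus 3 it was not called (1.81, edgeR FDR = 0.176), nor without any of the other libraries singly. Over all windows with reads 450 to 1292 were called with a library left out, against 905 with none left out. The Angus counts lay near the floor of 3 reads. The upstream flank next to it held 0.316 ± 0.120 CPM, and the one beyond had a log2 fold change of 0.58 (edgeR FDR = 1.00).

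The 2 other windows with p under 0.05 were window 14 of DNMT3A and window 10 of UHRF1. The DNMT3A window, which has no coding exon (11:73978085-73981084), held 2, 17, 17 and 28 reads in the Holstein and 11, 9, 9 and 5 reads in the Angus cultures. Holstein 1 lay below the Angus cultures there and the other 3 Holstein cultures above them (log2 fold change 0.70, SE 0.34, edgeR FDR = 1.00). The UHRF1 window, at coding exon 14 (7:20441246-20444245), held 1.97, 2.86, 2.69 and 3.41 CPM in the Holstein and 1.88, 2.26, 1.44 and 2.57 CPM in the Angus cultures. The breeds overlapped there in CPM. With TMM library sizes they did not, at 2.41, 2.55, 2.47 and 2.80 against 1.98, 2.06, 2.13 and 2.20 CPM, but the log2 fold change of 0.31 did not pass (SE 0.16, edgeR FDR = 0.995).

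A single window did not overlap between the breeds in CPM, against 1.31% of the windows that passed the filter and 1.25% of all windows with reads. This was window 17 of MBD2, its last (24:54042931-54045930), with 0.961, 0.952, 1.02 and 1.01 CPM in the Holstein and 1.08, 1.04, 1.18 and 1.18 CPM in the Angus cultures. The gap was narrow, and with TMM library sizes the breeds overlapped, at 0.833 to 1.18 in the Holstein and 0.952 to 1.74 CPM in the Angus cultures. The log2 fold change of -0.36 did not pass (SE 0.24, edgeR FDR = 1.00), and it was -0.16 without Angus 3. On the TMM scale window 10 of UHRF1 was the only one of the 99 windows without overlap, against 2.63% of the windows that passed the filter. This scale was tried after the values were seen. In the remaining genes the windows with the smallest p, none under 0.05, were window 5 of DNMT3L (-0.29, SE 0.16), window 13 of TET2 (-0.65, SE 0.45), window 12 of TET3 (-0.25, SE 0.17) and window 4 of TDG (0.45, SE 0.29), as log2 fold changes of Holstein over Angus by edgeR. The other 7 first windows had log2 fold changes from -0.19 in TET2 to 0.34 in MBD2.

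Reads summed over all windows of a gene gave tighter estimates. None of the 8 genes was called, against 0.0723% of the 19372 genes tested, and none had an unadjusted p under 0.05 by the likelihood-ratio test, the quasi-likelihood test or DESeq2 (background 1.97% by the likelihood-ratio test). The log2 fold changes of Holstein over Angus were 0.05 (SE 0.14) in DNMT1, -0.02 (SE 0.14) in UHRF1, 0.06 (SE 0.12) in DNMT3A and -0.09 (SE 0.14) in DNMT3L. They were -0.09 (SE 0.13) in TET2, -0.02 (SE 0.14) in TET3, 0.14 (SE 0.18) in TDG and 0.07 (SE 0.12) in MBD2. The edgeR FDR was 1.00 in each. The 95% intervals reached at most from 0.778-fold to 1.41-fold, so that a 2-fold difference in the summed reads lay outside the interval of each gene. The sums cover the windows that carry the gene name, which in DNMT3A and TET3 are not the whole gene. The median log2 fold change over the 8 genes was 0.01, beside -0.00 over all genes tested. With total counts in place of TMM the medians moved to 0.16 and 0.15, and DNMT3L, TET2, TET3 and UHRF1 changed sign to 0.07, 0.05, 0.12 and 0.13. Without Holstein 1 and Angus 3 the values lay between -0.13 and 0.13, with a change of sign in MBD2 (-0.01).

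**Figure D4:**
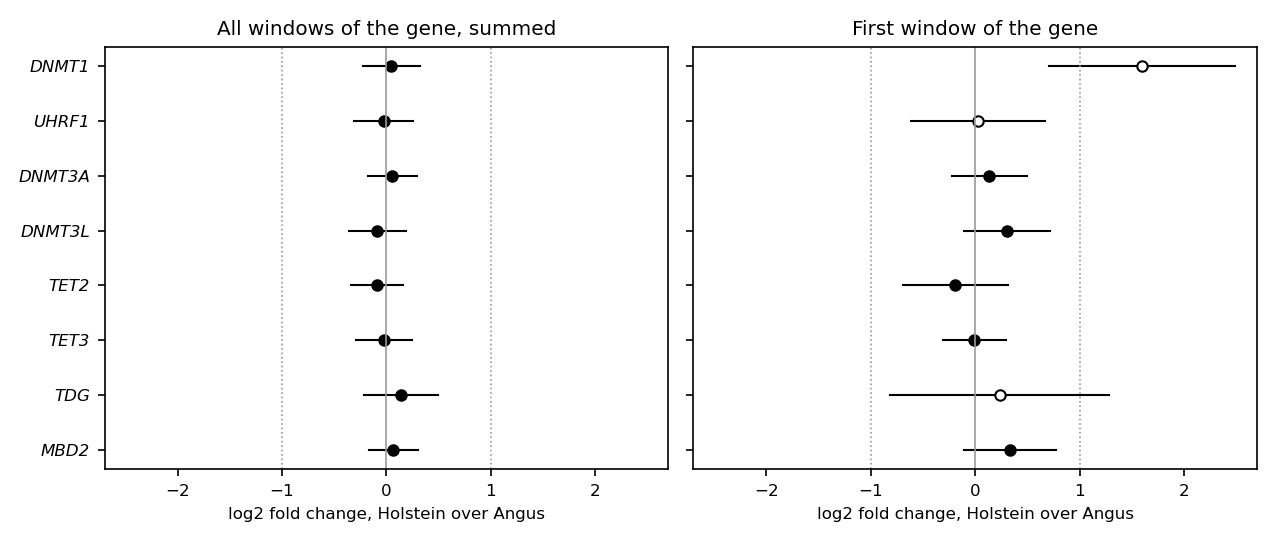
Log2 fold change of Holstein over Angus (x axis) with 95% intervals, for all windows of a gene together (left) and for its first window (right); filled symbols come from the fits of genes and of windows that passed the CPM filter and open symbols from the fit of all windows with reads, and dotted lines mark a 2-fold difference. The interval of the DNMT1 first window (0.71 to 2.49) excludes 0, and the gene values lie between -0.09 and 0.14.

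The within-culture differences did not separate the breeds either. Of the 23 differences (8 for the first window, 7 for coding exons and 8 for flanks) none had p under 0.05 in an exact permutation test of 4 against 4 cultures, and the smallest adjusted p was 0.970. The smallest p that this permutation test allows is 0.0286, so the adjusted p could hardly have passed.

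Across the 8 cultures the gene whose log2 CPM (TMM) followed UHRF1 most closely was LLGL1 (Pearson's r = 0.997), and that for DNMT1 was THYN1 (r = 0.991). The others were ALKBH6 for DNMT3A (r = 0.963), RET for DNMT3L (r = 0.980), ANKRD6 for TET2 (r = 0.982), TJAP1 for TET3 (r = 0.998), LOC618337 for TDG (r = 0.972) and TTC19 for MBD2 (r = 0.978), each on another chromosome. Each was the highest of 18308 to 19055 genes compared over only 8 points, which share library and depth effects. With UHRF1 1312 genes exceeded r = 0.9 and with TET3 1133, against 12 with DNMT3A and 13 with TET2. The correlations are therefore a description only, and no link between the genes was tested.

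Other genes of the DNA methylation machinery were taken from 5 lists of 36 genes, of which 35 had windows and 31 passed the CPM filter. None was called between the breeds (edgeR, beside 0.0723% of all genes), and the median log2 fold change was 0.02. At an unadjusted p under 0.05 by the edgeR likelihood-ratio test there were 2 of the 31, against 1.97% of all genes tested. Of these 2, 1 is described. In AHCY, which clears the S-adenosylhomocysteine that methyltransferases leave, the log2 fold change was 0.30 (SE 0.14, edgeR FDR = 1.00), with 1.26, 2.24, 1.88 and 2.53 CPM per window in the Holstein and 1.39, 1.45, 1.11 and 1.77 in the Angus cultures. The breeds overlapped in this gene. Among the maintenance factors the smallest p was that of TRDMT1, an RNA methyltransferase of the DNMT family (log2 fold change 0.24), and among the CXXC genes that of CXXC1 (-0.12), with an edgeR FDR of 1.00 each. The medians of the lists ran from -0.02 in the readers to 0.14 in the maintenance factors.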

How the data were processed

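MIRA-Seq libraries of 4 Holstein and 4 Angus fibroblast cultures were grouped by the breed and animal number of their labels. The genes and lists were chosen with earlier results of these data known. The authors called bases with CASAVA 1.7, aligned reads to UMD v3.1 with NextGENe 2.3.4 and deposited the raw read count of each 3Kb window, without normalization. Beside it the deposited tables hold coverage per window (a signal not scaled for depth), whose maximum was used to look for stacked reads. No input library was used here, so CpG density and copy number were not separated from methylation, and the handling of duplicate and multiply placed reads is not given in the sources used here.

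CPM was computed over the 902984 windows (18691111 to 35525554 reads per library). A window carries a single gene name, strand and coding exon number, and the window at the 5′ end by strand was taken as the first. The listed genes without a window of their name were not analysed here. No sequence of this build was used, so the CpG content of promoters was not analysed here.

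Breeds were compared in R 4.3.3 with the likelihood-ratio test of edgeR 4.0.16 (TMM, 1 CPM or more in 4 or more samples, Benjamini-Hochberg adjustment over the whole table, called at FDR < 0.1 and FC of at least 2). It was tried on simulated counts of genes and windows that passed the filter, with means proportional to library size. The fit of all windows with reads was not simulated. Windows below the filter took their values from a fit of all windows with reads. The SE was obtained from the estimate and the square root of its likelihood-ratio statistic. Differences within cultures were tested over 8 cultures by exact two-sided sign-flip permutation (256 patterns), adjusted over all genes rather than the listed genes alone. Python 3.11.15 was used for these (scipy 1.17.1, numpy 2.4.6 and pandas 2.3.3). Alternatives were the edgeR quasi-likelihood test, DESeq2 1.42.0, total counts, DESeq2 size factors (RLE), other filters and thresholds, unplaced scaffolds left out, the animal number as a block, each library left out, log2(CPM + 0.1), medians over windows and TMM library sizes; added after seeing the data were the fit without Holstein 1 and Angus 3, coding exon 1 as the first window, TET3 without the 2 windows apart, and the overlap of the breeds with TMM library sizes.

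Windows named one by one were, for each gene, the first, that with the highest mean CPM and that with the smallest breed p; other windows named along a gene were chosen after their values were seen. From the other machinery genes the smallest p of each list was named, except for genes that are not reported here, and for each gene the 1 gene on another chromosome with the highest correlation.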

Additional observations from a re-analysis of the deposited data

Results flagged for a closer look

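In 64 groups of 4 cultures (the levels of the 8 genes and their named windows, by breed), 6 had a culture far from the others by Dixon's test. The values were in CPM without TMM scaling, and 2 of the 6 are the same window, named under both rules. A rate of about 1 in 20 by chance would hold for separate groups only, whereas these share 8 libraries and some windows. Holstein 1 and Angus 3, the libraries with most reads in few windows and with low CPM in most of these genes, account for 5 of the 6. The level of DNMT3A was 0.620 CPM per window in Angus 3 against 0.984 to 1.04 in the other Angus cultures, and that of MBD2 was 0.433 in Angus 3 against 0.856 to 0.879. The level of DNMT3L was 1.64 in Holstein 1 against 2.24 to 2.36 in the other Holstein cultures. The first window of DNMT1 held 0.101 CPM in Holstein 1 against 0.492 to 0.563. The remaining value was window 13 of TET2, with 0.346 CPM in Holstein 2 against 0.151 to 0.169 in the other Holstein cultures, which rests on 8 reads against 3 to 6. What sets these libraries apart was not tested.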

How the results depend on the processing

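No window or gene of the 8 genes was called under any alternative run, except the first window of DNMT1 without Holstein 1 (1 window in the fit of all windows with reads, range 0 to 1 over the libraries left out). Over the whole table the 267 windows called became 141 by the quasi-likelihood test and 141 by DESeq2, 425 without a fold change minimum, 905 without a CPM filter, 163 with 1 CPM or more in every sample, 154 without unplaced scaffolds, 531 without Holstein 1 and Angus 3, and 145 to 564 with a library left out. The 14 genes called became 0 by the quasi-likelihood test, 7 by DESeq2, 23 without a fold change minimum, 32 without a filter, 9 with 1 CPM or more in every sample and 8 to 20 with a library left out, and the 905 windows of the unfiltered fit became 501 by the quasi-likelihood test, 517 with total counts and 450 to 1292 with a library left out.

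Animal numbers did not pair the cultures: deviations from the breed means correlated at -0.0199 on average for the same number (range -0.216 to 0.109) and at 0.0102 for different numbers, and 1 of 8 cultures correlated best with its own number. With the number as a replicate block 346 windows and 16 genes were called, 614 in the unfiltered fit, none of these in the 8 genes. The block turned the first window of UHRF1 to -0.055.

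Sign changes of log2 fold changes (none called) were seen with total counts in DNMT3L (0.067), TET2 (0.047), TET3 (0.12), UHRF1 (0.13) and the TET3 first window (0.13, and 0.014 with 1 CPM or more in every sample), and in MBD2 without Holstein 1 and Angus 3 (-0.010). With 1 library, or Holstein 1 and Angus 3, left out, DNMT1 ranged from -0.050 to 0.14, TET3 from -0.12 to 0.048, UHRF1 from -0.14 to 0.042, MBD2 from -0.010 to 0.095, the TET3 first window from -0.041 to 0.041 and that of UHRF1 from -0.14 to 0.15.

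Within cultures, the first window of DNMT3A was lower by -0.728 CPM and that of TET3 by -1.76 with coding exon 1 as the first window, and TET3 by -1.48 without the windows apart, since these settings compare another window. MBD2 passed the exact sign-flip test on the log2 scale (0.634, adjusted p = 0.0252), with medians (0.406, 0.0152), with TMM sizes (0.218, 0.0439) and without Angus 1 (0.286), over a range of 0.189 to 0.286 with a library left out. It did not pass with any other library left out, nor with coding exon 1 as the first window. The flank difference of TET2 was 0.0584 with medians (adjusted p = 0.0676); the cause was not tested. Medians over windows lowered the levels of DNMT1 to 1.42, TET2 to 0.349, TET3 to 1.52 and UHRF1 to 1.99. Depth limited the low windows most: 23 of 99 had 3 reads or fewer in some library.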
